A study of Mus musculus with 6 samples.

Results

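The mitochondrial ribosomal protein genes are the nuclear genes with Mrpl and Mrps symbols, which name proteins of the large and of the small subunit of the mitochondrial ribosome. They were taken by symbol from a gene expression table of mouse embryonic fibroblasts: every row whose gene name was Mrpl or Mrps followed by a number and, in some, a letter from a to c. The rule found 78 genes among 49315 in the table, 49 with an Mrpl and 29 with an Mrps symbol. It used no measured value.

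The study compared fibroblasts heterozygous for the R206H allele of Acvr1 (Acvr1R206H/+, called R206H here), which encodes a BMP type I receptor and is mutated in fibrodysplasia ossificans progressiva (FOP), with wild-type fibroblasts (Acvr1+/+). Both were isolated from embryos at day E13.5, kept to passage 0 and grown for 2 days in six-well plates, and RNA was sequenced after removal of ribosomal RNA. There were 3 libraries of each genotype, which the study's design text calls biological replicates; whether a library came from 1 embryo or from several, and the litter and sex of the embryos, were not given in the sources used here. The cells were a primary culture from whole embryos and are not described as a clonal line.

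The mitochondrial ribosome translates the few proteins encoded in mitochondrial DNA, all of them membrane subunits of the oxidative phosphorylation complexes. Its RNAs are transcribed in the mitochondrion, whereas all of its proteins are encoded in the nucleus, made in the cytosol and imported. Many of the proteins have a bacterial counterpart, and the others are found only in mitochondrial ribosomes, so both sets of genes have to be expressed together for the particle to be assembled.

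Levels were deposited as TPM, a transcript abundance scaled to gene length and to a constant library total. The 14818 genes that reached 1 TPM in 3 or more libraries were tested together with limma on log2(TPM + 1), and a gene was called when its p adjusted over all 14818 by Benjamini-Hochberg was under 0.05. All log2 differences are R206H minus wild type on that scale, which understates the change of genes with low levels. All 78 mitochondrial ribosomal protein genes passed the filter. Reads rebuilt from the TPM and the exon lengths numbered 17800000 to 21700000 per R206H library and 17500000 to 24600000 per wild-type library, and 23 to 5910 reads stood behind each of the 78 genes in each library. The first principal component of all genes, with 40.8% of the variance, separated the genotypes, and the second, with 19.3%, set wild-type library 1 apart from the other 5. Summed fibroblast markers were 11745 to 14787 TPM in R206H libraries and 7989 to 9834.8 TPM in wild-type libraries, and summed epithelial markers were 197.4 to 404.3 TPM and 550.9 to 650.2 TPM. In bulk RNA, a smaller share of cells of a type and less RNA per cell cannot be told apart.

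Only 1 of the 78 genes, Mrpl12, passed the test, and it was lower in R206H fibroblasts; over all genes tested, 2.04% were called in either direction and 0.79% were called lower, and 1.26% were called higher, where none of the 78 was. The other 77 genes did not pass. Most of the genes nevertheless had slightly lower values in R206H libraries: 60 of 78 had a log2 difference below 0, which is 76.9%, against 46.4% of all genes tested. The median difference was -0.07 over the 78 genes and 0.02 over all genes tested. The sizes were small, since 50 of the 78 genes differed by less than 10% in mean TPM and 4 (Mrpl12, Mrpl19, Mrpl47 and Mrps18b) by more than 20%. The 78 differences ran from -0.38 for Mrpl12 to 0.24 for Mrps16.

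**Figure D1:**
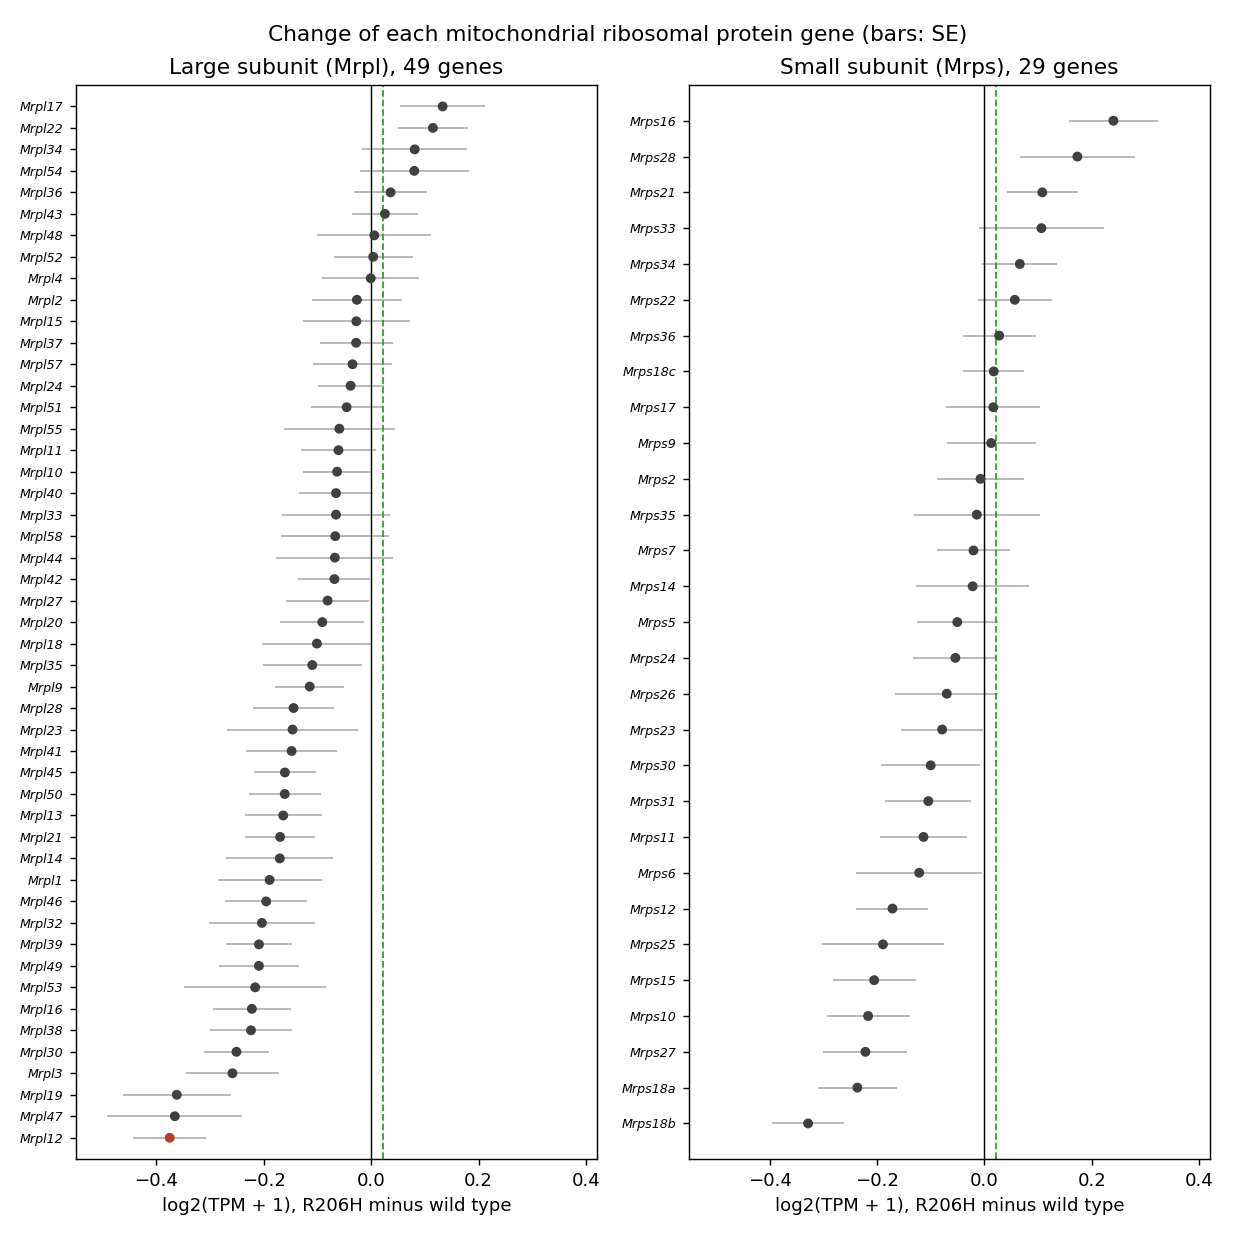
Difference of each mitochondrial ribosomal protein gene, R206H minus wild type, in log2(TPM + 1), for the large (left) and the small subunit (right), with bars giving the standard error from limma (3 libraries per genotype). The red point is the gene called, Mrpl12; the solid line is 0 and the green dashed line the median over all genes tested, 0.02. Most points lie left of both lines. Right of 0 lie 8 of 49 large and 10 of 29 small subunit genes, Mrps16 farthest.

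At an unadjusted p under 0.05, 19 of the 78 genes were lower and 1 was higher in R206H libraries, against 11.7% of all genes tested lower and 14.4% higher; the 19 are 24.4% of the 78. Counted without a test, all R206H values lay below all wild-type values for 22 of the 78 genes (28.2%), against 15% of all genes. All R206H values lay above for 3, Mrps16, Mrps21 and Mrps22, against 17.9% of all genes. The genes share the same 6 libraries, so these counts are not independent of each other.

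Levels varied more between the genes than between genotypes. The highest mean over all 6 libraries was that of Mrpl42, a large subunit protein specific to mitochondria, at 218.8 ± 16.8 TPM in R206H and 229.1 ± 7.1 TPM in wild-type libraries (SD, n = 3 each). The lowest was that of Mrps35, a small subunit protein specific to mitochondria, at 6.15 ± 0.08 TPM in R206H and 6.24 ± 0.66 TPM in wild-type libraries. The highest was 36.1 times the lowest, although most of the proteins are present once in each particle.

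Next to Mrpl42 in the large subunit stood Mrpl12 and Mrpl2, which encodes a protein near the catalytic centre and had 131.5 ± 12.4 TPM in R206H and 133.7 ± 8.1 TPM in wild-type libraries (adjusted p = 0.869). In the small subunit the order was led by Mrps21, at 191.5 ± 15.6 TPM in R206H and 177.3 ± 0.76 TPM in wild-type libraries, then Mrps6, at 164.7 ± 4.91 TPM and 180.9 ± 29.9 TPM, then Mrps16. Mrps21 and Mrps6 differed from each other by less than the spread of Mrps6 in the wild type. Mean levels over 100 TPM were found for 12 of the 78 genes and levels under 20 TPM for 17.

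Low levels went with long annotated exons. Over the 78 genes, Spearman's rho between summed exon length and mean TPM was -0.71, a description across genes that share the same libraries. Exon lengths ran from 607 to 8631 nt with a median of 2394 nt, because the length that reproduces whole reads is that of all annotated exons of a gene, those of rare transcripts included; what this contributed to the order of levels was not tested. Mrps35, Mrps25 and Mrps10 in the small subunit and Mrpl48 and Mrpl1 in the large subunit were such low genes. Mrpl53 was an exception among short genes, at 5.77 ± 0.69 TPM in R206H and 6.86 ± 0.66 TPM in wild-type libraries; 88.0% of its exon length is shared with Gm42688 on the same strand; what the overlap contributed was not tested. In all, 17 of the 78 genes share 10% or more of their exon length with another gene. Among those named below or above, the shares are 69.8% for Mrps25, 23.2% for Mrps18c and 19.9% for Mrps6. They are 14.1% for Mrpl10, 13.9% for Mrpl47 and 12.2% for Mrpl46, which overlaps Mrps11. The shares of Mrpl12, Mrpl19, Mrps18b and Mrps27 are given with these genes below. The level of a gene bore little relation to its difference between genotypes (rho 0.12).

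**Figure D2:**
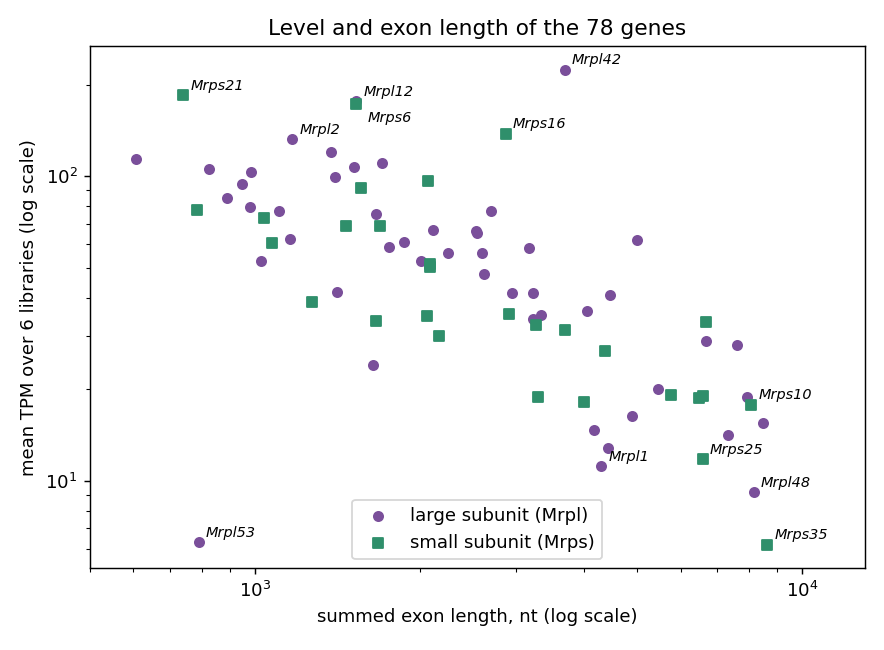
Mean TPM over all 6 libraries against the summed exon length of each of the 78 genes, both on log scales; circles are large and squares small subunit genes. Levels decline with length, and Mrpl53 lies far below the other short genes.

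In the large subunit, 41 of 49 genes had differences below 0 and the median was -0.09. Mrpl12 encodes the protein of the flexible stalk that recruits translation factors, and its human counterpart has also been reported to bind the mitochondrial RNA polymerase. It had 165.6, 145.9 and 149.7 TPM in R206H libraries, against 192.7, 194.7 and 211.2 TPM in wild-type libraries. The groups did not overlap, and the lowest wild-type value exceeded the highest R206H value.

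The log2 difference of Mrpl12 was -0.38 with a standard error of 0.068 and an adjusted p of 0.0476 (limma), close to the threshold. Among 18 fits with other settings or libraries left out, the reported one included, it was called in 7, with adjusted p between 0.0173 and 0.167. Without R206H library 1 the adjusted p was 0.0321, without R206H library 2 it was 0.153, without R206H library 3 it was 0.107, and without wild-type library 1, 2 or 3 it was 0.0578, 0.139 and 0.167. The gene lies on chr11:120484613-120489065 (+ strand, GRCm38). It shares 13.1% of its exon length with the antisense gene Gm16755, whose own levels were 0.94 to 2.92 TPM in R206H and 1.14 to 2.41 TPM in wild-type libraries, and the strand setting of the counting is not given in the sources used here. The genes of the stalk's base, Mrpl10 and Mrpl11, looked at for their place beside Mrpl12 and not by the naming rule, overlapped between genotypes. Mrpl10 had 108.2 ± 5.82 TPM in R206H and 113.1 ± 5.59 TPM in wild-type libraries (adjusted p = 0.571), and Mrpl11 had 33.2 ± 2.15 TPM and 34.7 ± 0.80 TPM (adjusted p = 0.626).

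No other large subunit gene passed in the reported limma fit. Mrpl30 and Mrpl19 were called by voom on the rebuilt reads (adjusted p = 0.0478 and 0.0443) and by limma with library weights. Mrpl19 was also called without R206H library 1. Voom called 3 of the 49 large subunit genes, against 8.68% of all genes. Library weights also called 3, against 1906 of all 14818 genes, and leaving out R206H library 1 called 2, against 722. Mrpl30, which encodes a protein with a bacterial counterpart, had 36.2, 38.2 and 38.9 TPM in R206H libraries, against 43.6, 45.6 and 46.1 TPM in wild-type libraries. The groups did not overlap, and the spread within each was small beside the gap (log2 difference -0.25, adjusted p = 0.0706). Mrpl19, another protein with a bacterial counterpart, had 19.95, 16.8 and 15.5 TPM in R206H libraries, against 22.3, 22.5 and 22.9 TPM in wild-type libraries. Its R206H values were scattered while its wild-type values were nearly equal (-0.36, adjusted p = 0.0884), and 36.0% of its exon length is shared with Gcfc2 on the opposite strand.

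Mrpl39, specific to mitochondria, had 61.0, 63.3 and 59.2 TPM in R206H libraries, against 73.0, 72.8 and 66.7 TPM in wild-type libraries (-0.21, adjusted p = 0.0963). Mrpl16, whose bacterial counterpart helps position transfer RNA, had 50.9, 52.7 and 57.2 TPM in R206H libraries, against 66.5, 58.9 and 62.7 TPM in wild-type libraries (-0.22, adjusted p = 0.118). In both genes the genotypes were separate. Mrpl47 had 12.6, 11.9 and 9.11 TPM in R206H libraries, against 14.7, 14.1 and 14.9 TPM in wild-type libraries, the largest difference in mean TPM of the 78 genes at -23.3%, but R206H library 3 stood well below the other two and the adjusted p was 0.132.

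Values in the other direction were few in the large subunit. Mrpl17 averaged 29.3 ± 2.13 TPM in R206H and 26.6 ± 1.37 TPM in wild-type libraries (0.13, adjusted p = 0.336). Mrpl22, whose bacterial counterpart lines the exit tunnel of the nascent chain, averaged 82.5 ± 5.7 TPM in R206H and 76.0 ± 2.36 TPM in wild-type libraries (0.11, adjusted p = 0.314). The genotypes overlapped in both.

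The small subunit held values in both directions. Of its 29 genes, 19 had differences below 0, the median was -0.05, and none was called in the reported limma fit. At an unadjusted limma p under 0.05, 6 were lower and 1 higher, against 11.7% and 14.4% of all genes. By voom on the rebuilt reads, 1 (Mrps18b, adjusted p = 0.0372) was called, against 8.68% of all genes by that test. Mrps18b had 45.2, 47.3 and 41.7 TPM in R206H libraries, against 54.2, 57.2 and 57.6 TPM in wild-type libraries. The groups did not overlap, and the log2 difference was -0.33 with a standard error of 0.067 and an adjusted p of 0.0578. The gene lies on chr17:35910379-35916389 (- strand, GRCm38), and 30.5% of its exon length is shared with Gm16279.

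Mrps18b belongs to a trio of paralogs that descend from a single bacterial S18 protein and take different places in the mammalian ribosome: Mrps18b and Mrps18c lie in the small subunit and Mrps18a, despite its symbol, in the large. Mrps18a had 28.6, 29.9 and 27.8 TPM in R206H libraries, against 33.4, 32.2 and 36.7 TPM in wild-type libraries, without overlap (-0.24, adjusted p = 0.108). Mrps18c had 61.5, 59.1 and 62.1 TPM in R206H libraries, against 57.7, 62.6 and 60.2 TPM in wild-type libraries, with the genotypes interleaved (0.02, adjusted p = 0.876). The differences between the paralogs' differences were not tested.

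Mrps16, a small subunit protein with a bacterial counterpart, had 139.9, 142.4 and 166.2 TPM in R206H libraries, against 122.1, 135.3 and 121.2 TPM in wild-type libraries. All R206H values lay above all wild-type values, R206H library 3 farthest, and the log2 difference of 0.24 (standard error 0.083) had an adjusted p of 0.133. Mrps21 and Mrps28 had smaller differences, of 0.11 (adjusted p = 0.346) and 0.17 (adjusted p = 0.353), and Mrps28 overlapped between genotypes. Mrps22, named only because its groups did not overlap, had 18.6 ± 0.14 TPM in R206H and 17.8 ± 0.43 TPM in wild-type libraries.

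Mrps27, a pentatricopeptide repeat protein, had 50.1, 48.3 and 44.7 TPM in R206H libraries, against 58.5, 58.1 and 50.9 TPM in wild-type libraries (-0.22, adjusted p = 0.139). Of its exon length, 24.2% is shared with 6430562O15Rik on the opposite strand. Mrps10 had 16.1, 17.0 and 16.0 TPM in R206H libraries, against 18.4, 20.4 and 18.8 TPM in wild-type libraries (-0.22, adjusted p = 0.141). Both were separate between genotypes. Mrps30, which lies in the large subunit despite its symbol, and Mrps36, now known as a component of the ketoglutarate dehydrogenase complex and not of the ribosome, overlapped between genotypes: Mrps30 averaged 32.2 ± 3.63 TPM in R206H and 34.5 ± 1.82 TPM in wild-type libraries, and Mrps36 averaged 39.1 ± 2.62 TPM and 38.3 ± 0.39 TPM.

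**Figure D3:**
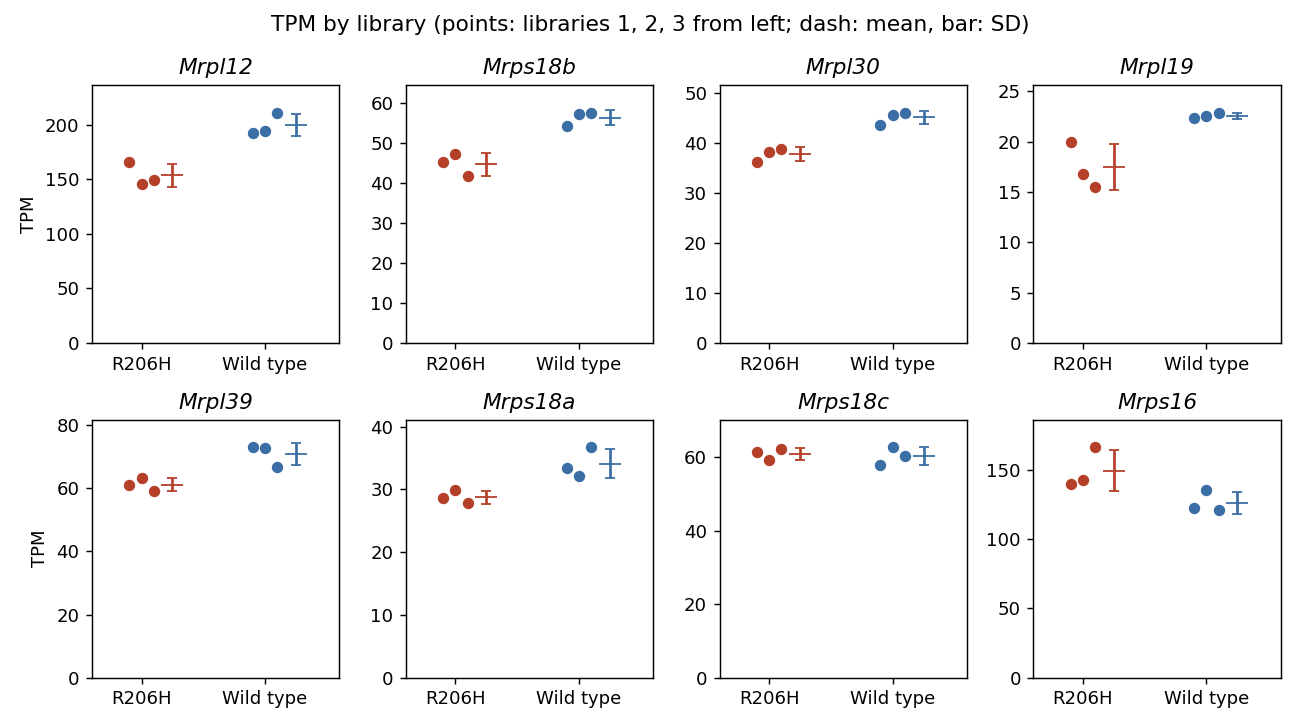
TPM of 8 of the genes in each library, with the mean and SD of each genotype (n = 3). Points for R206H lie below those for the wild type in Mrpl12, Mrps18b, Mrpl30, Mrpl19, Mrpl39 and Mrps18a, are interleaved with them in Mrps18c, and lie above them in Mrps16.

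The promoters of the 3 genes with the smallest p (Mrpl12, Mrps18b and Mrpl30) and of Mrps16, which had the largest difference above 0, are printed so that their motifs can be compared; the genes were chosen for their values. Each covers 250 bases before to 50 after the annotated start, 5′ to 3′ on the gene's own strand, from RefSeq on GRCm38.p6. Motifs searched on both strands are in capitals: the GC-rich motif bound by NRF1, CCGGAAG, bound by ETS family factors such as GABPA, and ATGGCGG, bound by YY1, which are known regulators of nuclear genes for mitochondrial proteins. Mrpl12 (chr11:120484387-120484686, + strand) and Mrpl30 (chr1:37890227-37890526, + strand) each held 1 NRF1 match. Mrps18b (chr17:35916391-35916690, - strand) held 1 ETS match at the very end of the window. Mrps16 (chr14:20393441-20393740, - strand) held 2 ETS matches, the second after the RefSeq start. The GENCODE annotation starts Mrps16 at base 20393634, before both matches, and Mrps18b at base 35916389, just past the end of its window.
Mrpl12: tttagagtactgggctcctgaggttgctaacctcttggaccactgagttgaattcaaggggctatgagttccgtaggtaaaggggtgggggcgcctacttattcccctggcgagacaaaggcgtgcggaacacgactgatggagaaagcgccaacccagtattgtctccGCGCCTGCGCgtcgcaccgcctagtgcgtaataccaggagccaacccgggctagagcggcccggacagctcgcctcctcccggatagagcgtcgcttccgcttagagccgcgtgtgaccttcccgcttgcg
Mrpl30: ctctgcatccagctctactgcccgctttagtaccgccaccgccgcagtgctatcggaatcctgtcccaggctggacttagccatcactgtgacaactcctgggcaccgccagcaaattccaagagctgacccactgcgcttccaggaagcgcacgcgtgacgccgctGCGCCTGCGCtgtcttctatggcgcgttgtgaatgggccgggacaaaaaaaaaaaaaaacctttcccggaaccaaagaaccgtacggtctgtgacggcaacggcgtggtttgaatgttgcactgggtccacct
Mrps18b: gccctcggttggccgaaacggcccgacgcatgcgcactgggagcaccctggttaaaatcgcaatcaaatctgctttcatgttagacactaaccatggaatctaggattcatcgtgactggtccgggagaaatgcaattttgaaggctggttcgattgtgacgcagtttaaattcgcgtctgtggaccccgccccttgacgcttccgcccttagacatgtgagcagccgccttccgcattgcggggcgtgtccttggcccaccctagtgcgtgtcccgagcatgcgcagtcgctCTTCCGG
Mrps16: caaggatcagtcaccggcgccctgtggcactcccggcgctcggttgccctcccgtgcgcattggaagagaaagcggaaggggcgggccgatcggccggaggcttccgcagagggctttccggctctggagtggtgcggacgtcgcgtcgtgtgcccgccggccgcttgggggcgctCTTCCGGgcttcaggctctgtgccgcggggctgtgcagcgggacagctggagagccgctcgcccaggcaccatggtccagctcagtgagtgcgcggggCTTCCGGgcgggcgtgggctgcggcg

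Of the 78 genes, 69 had a promoter in the RefSeq table. The NRF1 motif was found in 13 of them (18.8%), the ETS motif in 25 (36.2%), the YY1 motif in 13 (18.8%), and any of them in 41 (59.4%). Among 9799 promoters of tested protein-coding genes the shares were 10.5%, 18.0%, 8.27% and 31.8%. By subunit, NRF1 matches were in 23.3% of 43 Mrpl and 11.5% of 26 Mrps promoters, and ETS matches in 32.6% and 42.3%. Promoters of cytosolic ribosomal proteins held the ETS motif in 39.3% and the NRF1 motif in 6.56%, and those of nuclear oxidative phosphorylation subunits held the NRF1 motif in 24.6%. These are counts of letters and not of bound sites, and the differences between shares were not tested. The median log2 difference was -0.11 for genes with and -0.07 for genes without the NRF1 motif, -0.07 and -0.11 for the ETS motif, and -0.11 and -0.07 for the YY1 motif.

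A frequent feature that the symbols do not fix was the arrangement of the genes. A protein-coding gene on the opposite strand started within 1000 bp of the start of 33 of the 78 genes (42.3%), against 10.9% of 21938 protein-coding genes in the annotation. All 78 genes passed the filter on level, whereas the 21938 include genes that did not, so the sets are unlike. The share among tested genes was not computed. Mrpl46 and Mrps11 form such a pair with each other, and Mrps12 is paired with Sars2, the mitochondrial seryl-tRNA synthetase, Mrpl36 with Ndufs6 and Mrpl47 with Ndufb5, both subunits of complex I. The 30 such neighbours that were tested include Mrpl46 and Mrps11, themselves among the 78 genes. None of the 30 was called by limma (2.04% of all genes were) or by voom (8.68%), and their median difference was -0.03. At an unadjusted limma p under 0.05, 3 (Ska3, Tcp1 and Mrpl46) were lower and 2 higher, against 11.7% and 14.4% of all genes. Mitd1, the neighbour of Mrpl30, had 9.36 TPM in R206H and 8.32 TPM in wild-type libraries on average, and Ndufb5 had 22.7 TPM and 25.4 TPM.

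Summed over the genes, the transcripts of the large subunit came to 2995.7, 2857.9 and 2943.6 TPM in R206H libraries, against 3075.0, 3154.2 and 3201.0 TPM in wild-type libraries. The groups did not overlap, and their means, 2932.4 ± 69.6 TPM and 3143.4 ± 63.7 TPM, differed by -6.71%. Those of the small subunit came to 1542.9, 1503.9 and 1592.4 TPM in R206H libraries, against 1526.4, 1610.6 and 1589.0 TPM in wild-type libraries, which overlapped, with a difference of means of -1.84%. All 78 genes together took 0.454%, 0.436% and 0.454% of the TPM in R206H libraries and 0.460%, 0.476% and 0.479% in wild-type libraries.

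The ratio of large to small subunit transcripts was 1.94, 1.90 and 1.85 in R206H libraries, against 2.01, 1.96 and 2.01 in wild-type libraries. Every R206H ratio lay below every wild-type ratio, though the highest of the R206H libraries and the lowest of the wild type were close. With the genes sorted by their place in the particle (51 large, 26 small, Mrps36 in neither) the ratios were 2.11, 2.09 and 2.01 in R206H libraries and 2.21, 2.14 and 2.21 in wild-type libraries, again without overlap. Sums of TPM are led by the most abundant genes, Mrpl12 among the lower and Mrps16 and Mrps21 among the higher. The separation of the ratios may therefore rest on these few genes, and the ratios without them were not reported here. No test of the sums or ratios was made. The medians of genes with a bacterial counterpart (46 genes) and of those specific to mitochondria (31 genes) were both -0.07. Places in the particle and these classes were assigned by hand. Mrps18a and Mrps18b were placed among those specific to mitochondria, despite their descent from bacterial S18, and Mrps18c among those with a counterpart.

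**Figure D4:**
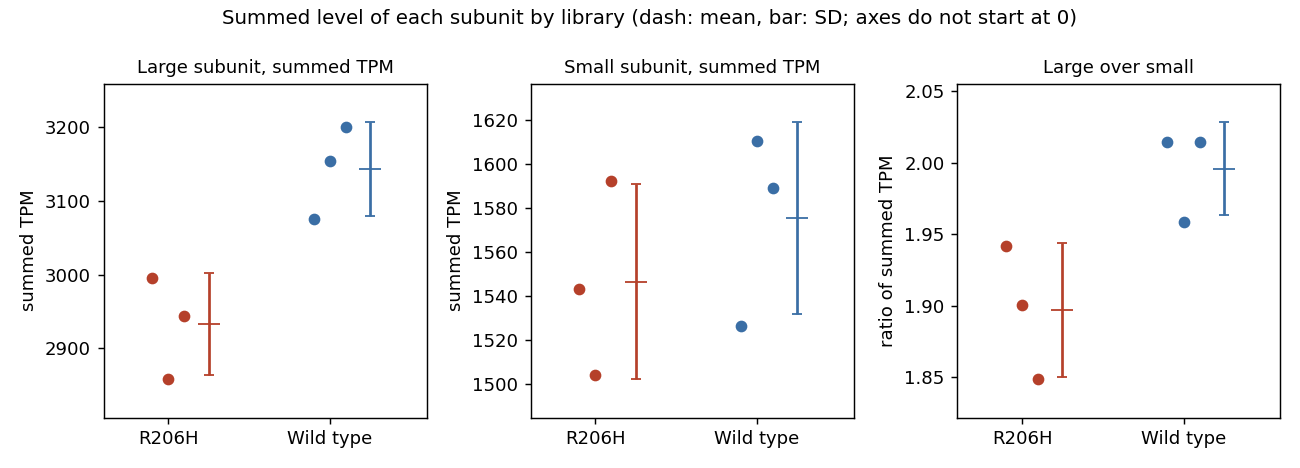
Summed TPM of large (left) and small subunit genes (middle) and the ratio of the sums (right) in each library, with the mean and SD of each genotype (n = 3); the axes do not start at 0. R206H libraries lie below wild-type libraries for the large subunit and the ratio, and the genotypes overlap for the small subunit.

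Further parts of the same machinery were ribosomal proteins without an Mrp symbol (5 genes), assembly factors (24) and translation factors (12). Aminoacyl-tRNA synthetases (17) and transcription and DNA maintenance factors (12) were examined too. None of these lists had a gene called by limma. Voom on the rebuilt reads called Gtpbp10, of the 24 assembly factors, and Lrpprc, of the last list, against 8.68% of all genes. The medians of the lists were -0.13, -0.03, 0.02, -0.04 and -0.07 in that order. At an unadjusted limma p under 0.05, 1, 2, 1, 0 and 1 of their genes were lower, with 0 higher in each list. The lower ones are 20%, 8.33%, 8.33%, 0% and 8.33% of the lists, against 11.7% of all genes, and 14.4% of all genes were higher. Of the first list, Chchd1, a small subunit protein, had 135.7 ± 10.3 TPM in R206H and 167.7 ± 12.4 TPM in wild-type libraries (-0.30, adjusted p = 0.0802), while Dap3, a GTP-binding protein of the small subunit, had 37.9 ± 0.59 TPM and 37.3 ± 0.89 TPM. The smallest p of the assembly factors was that of Gtpbp10, a GTPase that matures the large subunit, at 8.68 ± 0.91 TPM in R206H and 12.1 ± 0.87 TPM in wild-type libraries (-0.44, adjusted p = 0.0761). Lrpprc, which stabilises mitochondrial messenger RNAs, had 35.2 ± 3.79 TPM in R206H and 45.2 ± 2.66 TPM in wild-type libraries (-0.35, adjusted p = 0.0814). Gfm1, an elongation factor, had 47.4 ± 3.79 TPM in R206H and 55.5 ± 1.40 TPM in wild-type libraries (adjusted p = 0.115), and Hars2, a histidyl-tRNA synthetase, had 20.5 ± 1.30 TPM and 18.1 ± 0.54 TPM (adjusted p = 0.221).

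Of 9 regulators of mitochondrial gene expression, 1 was called by limma, Myc, which was lower, against 0.79% of all genes called lower. All 9 had differences below 0. At an unadjusted limma p under 0.05, 3 (33.3%) were lower and 0 higher, against 11.7% and 14.4% of all genes. Myc had 85.8, 71.1 and 66.0 TPM in R206H libraries, against 116.0, 113.7 and 115.9 TPM in wild-type libraries (log2 difference -0.63, standard error 0.096, limma adjusted p = 0.0454). It was called in 10 of the 18 fits, with adjusted p between 0.0142 and 0.156; without R206H library 1 it was 0.0190, but without R206H library 2 or 3 it was 0.152 and 0.0857, and without wild-type library 1, 2 or 3 it was 0.0524, 0.125 and 0.156. Myc encodes a transcription factor that drives ribosome production and growth in many cells. The factors whose motifs were searched did not pass: Nrf1 had 13.9 ± 0.44 TPM in R206H and 14.4 ± 1.47 TPM in wild-type libraries, Gabpa had 37.3 ± 3.01 TPM and 40.0 ± 1.03 TPM, and Yy1 had 114.4 ± 2.51 TPM and 120.5 ± 6.15 TPM. The coactivator Ppargc1b had 2.35 ± 0.10 TPM in R206H and 4.61 ± 1.54 TPM in wild-type libraries (adjusted p = 0.104).

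The products that the ribosome makes are the 13 proteins encoded in mitochondrial DNA. The differences of all 13 transcripts were below 0, and none was called by limma. Voom called 4 (mt-Nd1, mt-Nd2, mt-Nd5 and mt-Nd6), against 8.68% of all genes. By limma, 7 (53.8%) had an unadjusted p under 0.05 and were lower, against 11.7% of all genes. The median of the 13 was -0.37, and their sum was 30916 to 34599 TPM in R206H and 36315 to 39897 TPM in wild-type libraries. All R206H values lay below all wild-type values for 8 of the 13 (61.5%), against 15% of all genes. The smallest p was that of mt-Nd1, a complex I subunit, at 5475 ± 477 TPM in R206H and 7053 ± 321 TPM in wild-type libraries (adjusted p = 0.0678). Among 80 nuclear subunits of oxidative phosphorylation, none was called by limma and 3 by voom (Cox6b2, Cyc1 and Ndufa12), against 8.68% of all genes by voom. At an unadjusted limma p under 0.05, 4 were higher and 8 (10%) lower, against 14.4% and 11.7% of all genes. Of the 80, 53 had differences below 0, and the median was -0.04. All R206H values lay below all wild-type values for 18 of the 80 (22.5%), against 15% of all genes, and above for 3. The smallest p was that of Cox6b2, a cytochrome c oxidase subunit best known from testis, at 44.1 ± 9.38 TPM in R206H and 22.0 ± 4.46 TPM in wild-type libraries (0.97, adjusted p = 0.0501).

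Of 81 cytosolic ribosomal protein genes tested, none was called by limma or voom, 1 had an unadjusted p under 0.05 and was higher, 2 were lower, 66 had differences below 0, and the median was -0.05, which ran from -0.095 without wild-type library 1 to -0.023 without wild-type library 3. All R206H values lay below all wild-type values for 7.41% of these genes, against 15% of all genes. At an unadjusted p under 0.05, 2.47% were lower, against 11.7% of all genes. Proliferation markers also had lower values in R206H libraries: 15 of 16 had differences below 0, and the median was -0.20. None was called by limma and 4 by voom (Birc5, Mcm3, Mcm5 and Pcna), against 8.68% of all genes by voom. At an unadjusted limma p under 0.05, 10 (62.5%) were lower, against 11.7% of all genes. All R206H values lay below all wild-type values for 12 of the 16 (75%), against 15% of all genes. The sum of the 16 was 1755 to 1839.2 TPM in R206H and 1927.2 to 2131.3 TPM in wild-type libraries. Marker sums of other cell types were 54.0 to 129.2 TPM in R206H and 65.0 to 99.8 TPM in wild-type libraries for macrophages, 15.7 to 19.9 TPM and 18.9 to 42.1 TPM for endothelium, 455.5 to 799.6 TPM and 515.1 to 690.5 TPM for skeletal muscle, and 83.3 to 102.9 TPM and 42.4 to 54.1 TPM for neurons. Erythroid markers were near 0, at 0.16 to 0.22 TPM and 0.33 to 0.47 TPM, with 5 of 7 listed at 0 in every library. The part of cell makeup and of proliferation in the differences of the mitochondrial ribosomal protein genes was not tested.

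**Figure D5:**
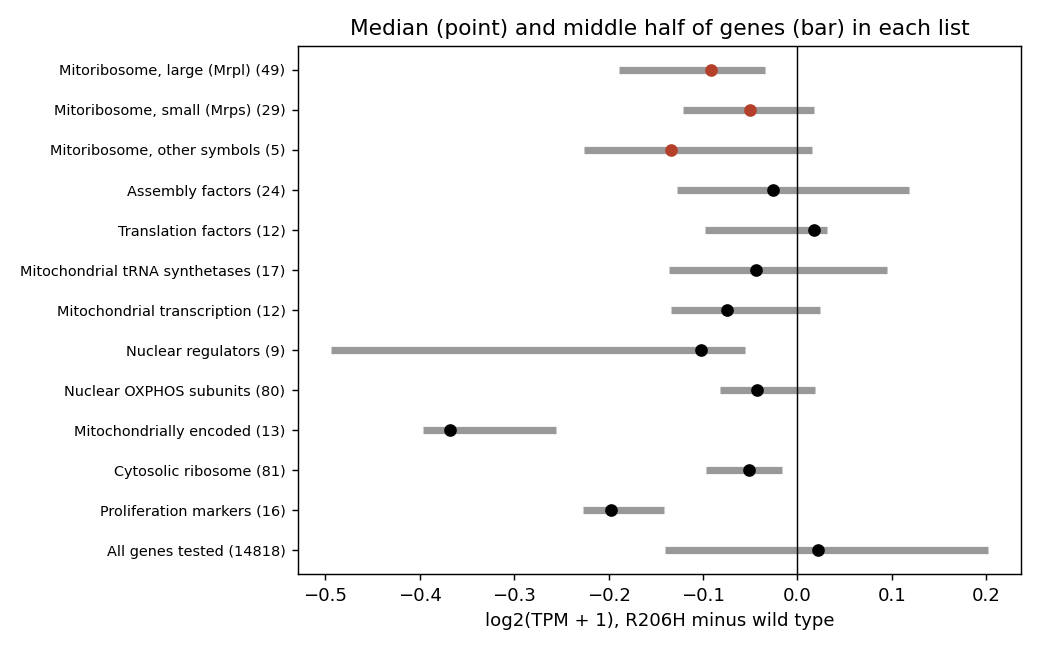
Median log2 difference (point), R206H minus wild type, and the range of the middle 50% of genes (bar) for each list, with the number of genes tested in brackets; mitochondrial ribosomal proteins are in red. Every list shown lies left of the median of all genes tested (0.022), translation factors nearest to it (0.017) and mitochondrially encoded transcripts farthest. The median of the small subunit (-0.051) lies beside that of cytosolic ribosomal proteins (-0.052).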

How the data were processed

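RNA-seq of 3 R206H and 3 wild-type libraries was deposited by the authors as 1 table of TPM values per gene. Per the submitters' processing notes, Trimmomatic, STAR, featureCounts and the build mm10 (GRCm38) were used; their settings are not stated in the sources used here. TPM are not counts, so log2(TPM + 1) was tested with limma 3.58.1 in R 4.3.3 (moderated with a mean-variance trend, two-sided, no covariates), after keeping genes that reached 1 TPM in 3 or more libraries; p was adjusted by Benjamini-Hochberg over 14818 genes. TPM times the summed exon length of the GENCODE annotation gave whole reads, within 0.05, for 91.1% to 91.5% of values under 100 reads, which set the depth and allowed a voom test as an alternative. The method was tested on simulated data.

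Members and lists were chosen with earlier results of these data known. Named genes were those called, the 5 of smallest p in each subunit, the 3 highest and 3 lowest in level, the 2 largest differences in each direction, Mrps18a to Mrps18c, Mrps30 and Mrps36, and in each other mitochondrial list those called or of smallest p. No set test was made, and sums, medians and shares are descriptions. P-values measure the spread between these libraries. Alternatives covered the pseudocount, the filter, scaling, trend, library weights, a block for the replicate number, leaving out 1 library at a time, voom and the threshold. Promoters come from RefSeq (GRCm38.p6, 69 of 78 genes matched). Mitochondrial ribosomal RNAs were not analysed here.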

Additional observations from a re-analysis of the deposited data

How the results depend on the processing

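The number of genes called over the whole table depended on the settings: 303 in the reported fit became 129 with a pseudocount of 0.1, 2 with no filter, 587 with a filter at 5 TPM, 200 with quantile normalization, 27 with no mean-variance trend, 1906 with library weights, 1284 with voom on rebuilt reads, 1787 at an adjusted p under 0.10, and 0 to 722 with 1 library left out (722, 0 and 1 without R206H library 1, 2 and 3, and 5 and 1 without wild-type library 2 and 3). Among the 78 genes, 1 call became 0 with pseudocounts of 0.1 and 5, no filter, median-of-ratios scaling, no trend, or without the genes that overlap others by 10% or more (an alternative added after seeing the data), 2 with a filter at 5 TPM, 4 with library weights and with voom, 5 at an adjusted p under 0.10, and 0 to 2 with 1 library left out (2, Mrpl12 and Mrpl19, without R206H library 1 and 0 without any other). For the large subunit the count was 0 under the same settings, 3 with weights and voom, 4 at 0.10, and 0 to 2 with 1 library left out; for the small subunit it was 1 with a filter at 5 TPM, weights, voom and at 0.10.

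The replicate block left 0 calls over all genes, 0 among the 78 and 0 in the large subunit. The deviations of same-numbered libraries from their group means had correlations across genes of 0.018, 0.0599 and -0.0283. Those of differently numbered libraries ran from -0.0518 to 0.0297. Such correlations cannot show whether libraries of the same number shared a litter or a preparation, so whether the numbers pair the libraries is not known.

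The median of the large subunit stayed below 0 under all 19 alternatives, from -0.144 with library weights to -0.068, and from -0.139 to -0.071 with 1 library left out. That of the small subunit stayed below 0 too, at -0.078 with voom, -0.021 without overlapping genes and from -0.078 without wild-type library 1 to -0.018 without wild-type library 2. The median of all genes tested lay between -0.0082 and 0.035, and 56 to 66 of the 78 genes were below 0. With 1 library left out, medians ran from -0.192 to -0.096 for the other ribosomal proteins, -0.047 to 0.039 for translation factors, -0.068 to 0.00968 for synthetases and -0.238 to -0.148 for proliferation markers, -0.055 without R206H library 3 to 0.026 without R206H library 2 for assembly factors (0.0035 without R206H library 1), and -0.062 without wild-type library 2 to -0.016 without R206H library 2 for nuclear oxidative phosphorylation subunits (-0.017 without wild-type library 3). That of transcription and DNA maintenance factors was -0.123 with quantile normalization.

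Genes near 0 changed sign. With 1 library left out, Mrpl2 ran from -0.069 to 0.054, Mrpl48 from -0.056 to 0.071, Mrps35 from -0.087 to 0.044, Mrps18c from -0.012 to 0.046 and Mrps36 from -0.00116 to 0.083. Mrpl48 was -0.018 with median-of-ratios scaling, -0.039 with quantile normalization, -0.00103 when rescaled without mitochondrially encoded and the top 50 genes, and -0.034 with voom. Mrps35 was 0.024 with library weights. Mrps18c was -0.0090 with median-of-ratios scaling, -0.015 with library weights and -0.014 with voom, and Mrps36 was -0.00239 with quantile normalization and -0.00359 with voom. The causes were not tested. Of 468 results for single genes, 427 kept direction and side of the threshold. Only Mrpl12 was called in the reported fit, so the other genes could change side only by gaining a call. Mrpl12 itself was called in 7 of the 18 fits. Depth limited Mrpl53 most, with 23 to 40 reads per library.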
